A study of Mus musculus with 4 samples.

Results

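In the peak lists of 4 single-nucleus ATAC-seq libraries, 30090 regions of open chromatin carried a peak in the wild-type library taken on day 5 of neural differentiation and in no other library. They were found by pooling the 4 lists and merging every pair of peaks that shared at least 1 bp, which gave 328597 merged regions. The 30090 regions were 9.16% of all merged regions. They were 16.1% (exact Clopper-Pearson 95% interval 15.9 to 16.2) of the 187150 regions with a wild-type day 5 peak. Each of them consisted of 1 peak. They are called wild-type day 5 regions here. They lay mostly far from gene starts, and their share rose with gene length, from 4.37% of the regions with a wild-type day 5 peak in genes under 10 kb to 37.2% in genes over 1 Mb, among them Tenm2, Lsamp, Ptprd, Robo1 and Dcc, genes of neuronal adhesion and axon guidance. In knockout day 5 the share of regions found in that library alone rose too, from 6.68% to 19.8%. Genes over 1 Mb outside the neuron and axon guidance lists used below had 36.3% in wild type day 5, against 40.9% on them. The wild-type day 5 regions were chosen by the presence or absence of called peaks in the 4 peak lists. Their number is therefore a description and not a test, and the absence of a peak is not the absence of accessible chromatin. Every interval below covers counting error only.

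The cells were mouse embryonic stem cells from blastocysts, either wild type or Cdc14ab KO (knockout of Cdc14a and Cdc14b, a pair of related phosphatases). Wild type and knockout were each taken at day 0, in medium with LIF, a cytokine that keeps stem cells undifferentiated, and at day 5 in N2B27, a serum-free medium, with the growth factors EGF and FGF2. All cells had been expanded on feeder cells, which were removed before extraction by low-density growth on gelatin. Nuclei were assayed with the 10x Multiome kit, which reads open chromatin and RNA from the same nucleus. The 4 groups have 1 library each, all labelled clone 3, so an effect of the knockout and a difference between cell lines cannot be told apart, and no difference between conditions was tested. The lists held 198860 peaks in wild type day 0, 222257 in knockout day 0, 189571 in wild type day 5 and 227878 in knockout day 5. The wild-type day 5 list was thus the shortest. It covered 162.5 Mb, against 168.8 to 197.3 Mb in the other lists. The deletion itself could not be read from peaks: in the body of Cdc14a with 50 kb on each side the lists held 30, 40, 24 and 41 regions (in the order wild type day 0, knockout day 0, wild type day 5, knockout day 5), and at Cdc14b 26, 35, 25 and 36.

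Peaks at Y-linked genes set the wild-type day 5 library apart. Of 10 single-copy Y-linked genes, Eif2s3y, Uty and Ddx3y had a peak within 1 kb of a start in wild type day 5 and none did in the other 3 libraries, although all 4 libraries carry the same clone label. Y as a whole held 16, 16, 20 and 14 peaks in the same order of libraries. Whether the wild-type libraries of day 0 and day 5 come from the same line is therefore unsure, and a change with time within wild type cannot be told apart from a difference between lines. The part of this difference in the results below was not tested. On the autosomes alone, 16.2% of the regions with a wild-type day 5 peak were private to that library.

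Nuclei carry most of their DNA wrapped around nucleosomes, and an ATAC-seq peak marks a stretch where the Tn5 transposase can insert, usually a promoter or an enhancer. Promoters rich in CpG tend to be open in every cell type, whereas enhancers open and close as cells change identity. During neural differentiation, stem cells leave pluripotency for neural progenitors, and later for neurons and glia that switch on adhesion, axon guidance and synaptic genes. Many of those genes are among the longest in the genome, with very long introns that hold enhancers.

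Where the deposited regions touched a promoter, the sequence could be read from a RefSeq table (assembly GRCm38.p6, the coordinates of mm10). The 6 promoters below are shown because they stood at the few wild-type day 5 regions on starts of neural or Y-linked genes described further on. Each is the 250 bases before a transcript start, written from 5′ to 3′ on the gene's own strand. Capitals mark matches, on either strand, to the E-boxes CAGCTG and CAGATG (bound by basic helix-loop-helix factors), to ACAAAG (a SOX core, CTTTGT on the other strand) and to TTGGCA (a core of the nuclear factor I site, TGCCAA on the other strand). Their positions are chr10:76253586-76253835 (S100b, plus strand), chr1:172057597-172057846 (Nhlh1, minus strand), chr16:7069585-7069834 (an internal start of Rbfox1, plus strand), chr17:15376933-15377182 (Dll1, minus strand), chr11:42420190-42420439 (Gabrb2, plus strand) and chrY:1245760-1246009 (Uty, minus strand).
S100b: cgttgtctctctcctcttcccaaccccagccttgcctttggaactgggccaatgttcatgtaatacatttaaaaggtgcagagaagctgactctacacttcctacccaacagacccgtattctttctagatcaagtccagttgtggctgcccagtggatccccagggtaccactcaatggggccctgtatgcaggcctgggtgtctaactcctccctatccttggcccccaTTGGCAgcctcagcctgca
Nhlh1: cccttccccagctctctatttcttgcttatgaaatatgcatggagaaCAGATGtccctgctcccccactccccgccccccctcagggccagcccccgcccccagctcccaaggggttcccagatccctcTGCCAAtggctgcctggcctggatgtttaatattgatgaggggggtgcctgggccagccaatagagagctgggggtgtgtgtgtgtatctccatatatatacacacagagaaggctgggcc
Rbfox1: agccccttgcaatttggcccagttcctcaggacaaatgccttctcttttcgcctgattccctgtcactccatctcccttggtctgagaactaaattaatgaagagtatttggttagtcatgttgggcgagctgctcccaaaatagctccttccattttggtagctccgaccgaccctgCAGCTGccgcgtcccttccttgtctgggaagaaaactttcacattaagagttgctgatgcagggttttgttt
Dll1: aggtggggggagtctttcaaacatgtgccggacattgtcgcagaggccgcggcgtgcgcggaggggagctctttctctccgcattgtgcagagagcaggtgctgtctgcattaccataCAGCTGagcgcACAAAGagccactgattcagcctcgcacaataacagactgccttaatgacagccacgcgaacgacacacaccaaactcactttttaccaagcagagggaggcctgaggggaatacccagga
Gabrb2: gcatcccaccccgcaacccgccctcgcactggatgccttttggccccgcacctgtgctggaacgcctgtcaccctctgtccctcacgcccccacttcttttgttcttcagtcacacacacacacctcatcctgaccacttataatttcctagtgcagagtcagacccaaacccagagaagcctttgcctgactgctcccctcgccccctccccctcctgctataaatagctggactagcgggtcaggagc
Uty: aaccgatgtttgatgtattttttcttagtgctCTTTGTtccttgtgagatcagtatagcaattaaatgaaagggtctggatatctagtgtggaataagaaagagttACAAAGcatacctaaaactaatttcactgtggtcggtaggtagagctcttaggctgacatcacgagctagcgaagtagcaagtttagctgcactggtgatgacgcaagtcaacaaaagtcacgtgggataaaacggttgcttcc

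The wild-type day 5 regions were of ordinary width. Their median was 870 bp (quartiles 809 and 909, range 228 to 1696), and the wild-type day 5 peaks that overlapped another library had a median of 880 bp. Most lay well clear of other libraries' peaks: the nearest one was a median of 2.77 kb away (quartiles 0.918 and 7.89 kb). By library, that distance was 3.72 kb to knockout day 5, 4.79 kb to knockout day 0 and 5.65 kb to wild type day 0. Just inside the 1-bp threshold, 471 of the regions had another library's peak within 50 bp and 1842 within 200 bp. Just outside it, 374 wild-type day 5 peaks were shared through an overlap of 1 to 50 bp at most, while the median overlap of shared peaks was 850 bp. In 10501 regions no other library had a peak within 5 kb.

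The widest wild-type day 5 region, chr5:48060555-48062250 (1696 bp), lay inside Slit2, which encodes a secreted axon repellent, 9.01 kb from any other library's peak. Other regions among the widest were chr5:142730951-142732593 in Tnrc18 (1643 bp), chr8:7206143-7207711 (1569 bp, in a gene desert) and chr4:103712819-103714257 in Dab1, an adaptor of the Reelin pathway that guides migrating neurons (1439 bp). Among the widest with no other peak within 5 kb were also chr2:135496240-135497534, 21.0 kb from Plcb1, and chr14:79881363-79882654, 110.1 kb from the protocadherin gene Pcdh8. None of these regions was at a gene start.

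Wild-type day 5 regions were rare at gene starts. Only 542 of them (1.80%, 1.65 to 1.96) overlapped the 1 kb on either side of a start of a protein-coding gene, against 15.5% of the regions open in all 4 libraries. Regions private to another library were also scarce there, with 2.18% in knockout day 5, 2.43% in knockout day 0 and 3.89% in wild type day 0. Gene bodies away from the start held 47.3% of the wild-type day 5 regions and intergenic DNA 50.9%, against 42.1% and 42.3% of the regions in all 4 libraries. The wild-type day 5 regions lay a median of 67.1 kb from the nearest start (quartiles 21.0 and 186 kb). The median was 40.5 kb for the regions of knockout day 5 only, 52.4 kb for those shared by the 2 day 5 libraries alone and 18.8 kb for those in all 4. More than 100 kb from any start lay 40.0% of the wild-type day 5 regions, 27.9% of the regions of knockout day 5 only and 14.9% of those in all 4 libraries.

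Their share grew steeply with the length of the gene they lay in. In genes under 10 kb, 4.37% (3.87 to 4.93) of the regions with a wild-type day 5 peak were private to that library. The share was 6.36% in genes of 10 to 30 kb, 10.7% from 30 to 100 kb, 16.0% from 100 to 300 kb and 25.2% (24.6 to 25.9) from 300 kb to 1 Mb. In the 59 genes over 1 Mb it reached 37.2% (35.6 to 38.9), or 1264 of 3394 regions. The private share of knockout day 5 went from 6.68% to 19.8% (18.4 to 21.2) over the same classes. At day 0 the private shares in genes over 1 Mb were 10.3% in wild type and 13.1% in knockout. Of the 3394 regions with a wild-type day 5 peak in these genes, 1264 were thus the private ones themselves, against 599 of 3032 in knockout day 5, 329 of 2504 in knockout day 0 and 234 of 2281 in wild type day 0. Leaving out regions at gene starts changed little in the longest class, with 38.1% in wild type day 5 and 20.3% in knockout day 5. In genes under 10 kb it raised the shares to 7.39% in wild type day 5 and 10.9% in knockout day 5. The rise with length was thus less steep away from gene starts. Relative to all its regions, the private share of wild type day 5 in genes over 1 Mb was 2.32 times as high, and 4.03 times for regions with no other library's peak within 5 kb. The 5 kb demand draws on the other libraries' peaks, as the rule does, so this rise is partly built in. It was not run for knockout day 5, so the rise has no comparison.

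**Figure D1:**
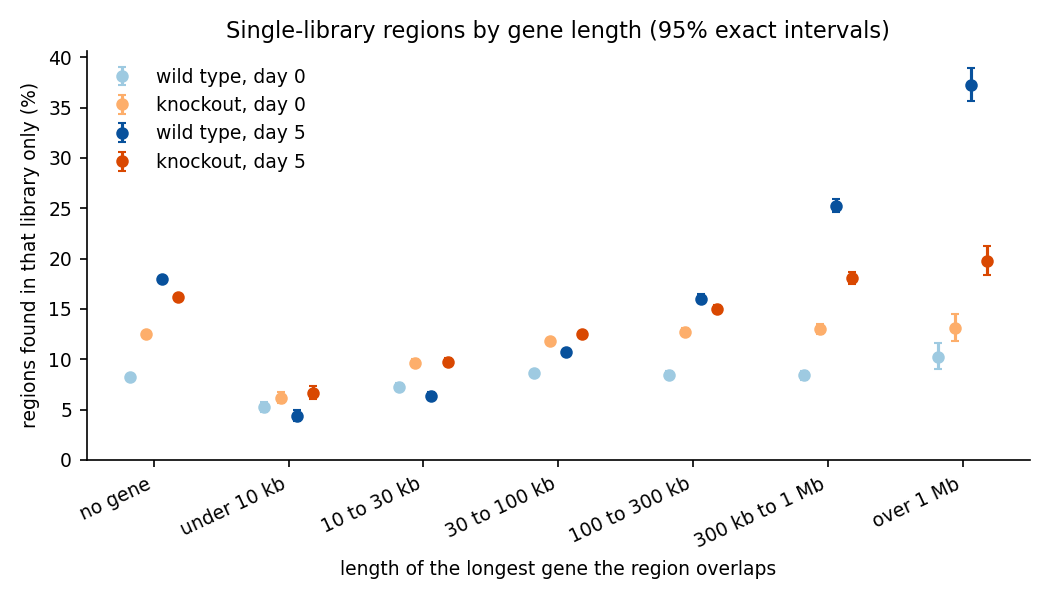
Share of each library's regions found in that library only (y axis, percent) by the length of the longest protein-coding gene the region overlaps (x axis). Points are the 4 libraries and bars are exact 95% intervals, and the wild-type day 5 points climb from 4.37% under 10 kb to 37.2% over 1 Mb.

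Every one of the 59 genes over 1 Mb held at least 1 wild-type day 5 region in its body or within 50 kb, and so did 225 of 226 genes of 500 kb and more (99.6%), against 62.6% of all 21883 protein-coding genes. A long gene has more room for any region, so the counts were set beside those of knockout day 5 only in the same genes. In 48 of the 59 genes the wild-type day 5 regions outnumbered those of knockout day 5 only, in 3 the numbers were equal and in 8 they were lower. The medians per gene were 21 and 11, with 7 for regions shared by the 2 day 5 libraries alone, 4 for wild type day 0 only and 6 for knockout day 0 only. Over all genes the order was turned: knockout day 5 only had more in 10802 genes and wild type day 5 only in 5286. In genes under 10 kb these numbers were 3521 and 1577. The 2 classes are cut from the same 4 lists, so their counts are not independent of each other.

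**Figure D2:**
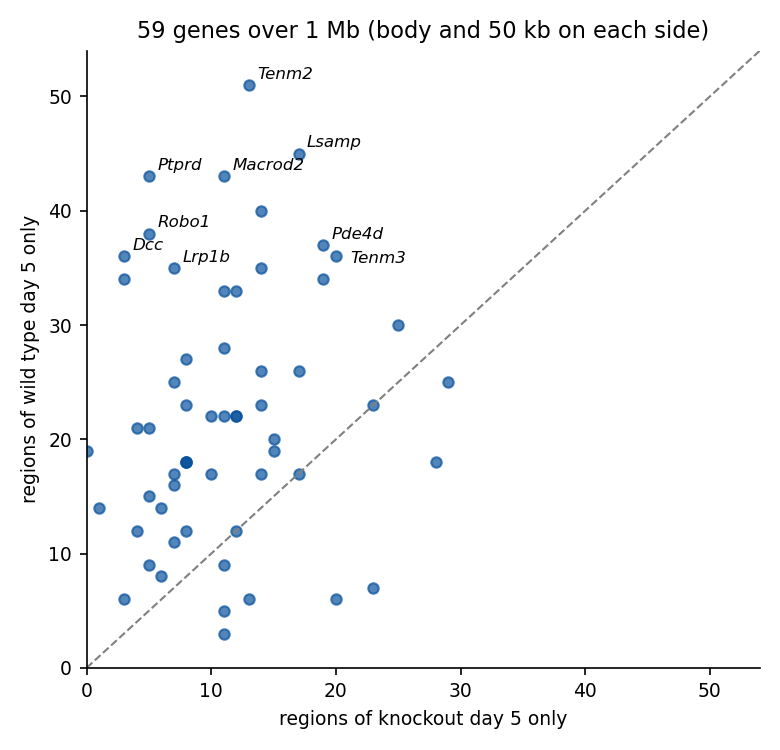
Regions of wild type day 5 only (y axis) against regions of knockout day 5 only (x axis) in each of the 59 genes over 1 Mb, counted in the gene body with 50 kb on each side. The dashed line marks equal numbers, and 48 genes lie above it, with Tenm2 at 51 against 13.

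Regions were counted per gene in the body with 50 kb on each side. The 10 genes with the most wild-type day 5 regions were 824.1 to 2270.5 kb long, and most are known for roles in neurons. Tenm2, a teneurin that joins synaptic partners across the cleft, led with 51 of its 121 regions that had a wild-type day 5 peak. In all, Tenm2 held 80 regions in wild type day 0, 76 in knockout day 0, 121 in wild type day 5 and 93 in knockout day 5. Lsamp, an adhesion protein of limbic neurons, had 45 private regions among 89, beside 41, 36 and 67 regions in wild type day 0, knockout day 0 and knockout day 5. Ptprd, a receptor phosphatase that organises synapses, had 43 of 74, and the other 3 libraries held 24, 27 and 38 regions there. The genes were ranked by these private regions, so a high total in wild type day 5 is partly built in. Macrod2, a hydrolase of ADP-ribose, had 43 of 103, and Dlg2, a postsynaptic scaffold, 40 of 112. Robo1, the receptor for Slit, had 38 of 95, and Dcc, the netrin receptor, 36 of 55. At Dcc the other libraries held 11 regions in wild type day 0, 15 in knockout day 0 and 26 in knockout day 5. The other 3 genes of the 10 were Pde4d, a cyclic AMP phosphodiesterase (37 of 136), Npas3, a neural transcription factor (36 of 84), and Tenm3, another teneurin (36 of 123). At Tenm3, wild type day 0 held 125 regions, and 20 regions were private to wild type day 0 and 20 to knockout day 5.

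A ranking by share, in the body with 50 kb on each side, took genes with at least 10 regions that had a wild-type day 5 peak. Gabrb2, a subunit of the GABA-A receptor, came first, with 9 of 11. The other libraries held 3 regions at Gabrb2 in wild type day 0, 6 in knockout day 0 and 4 in knockout day 5. It was followed by Sphkap (8 of 10), an anchor for protein kinase A, Plppr5 (7 of 10), Lrp1b (35 of 53), a giant lipoprotein receptor-related protein, and Dcc. Lrp1b held 21, 20 and 26 regions in wild type day 0, knockout day 0 and knockout day 5. The remaining genes were Gm5136 (7 of 11), Mdga2 (22 of 36), a synaptic adhesion regulator, Arap2 (9 of 15), Il1rap (6 of 10) and Myh15 (6 of 10). Apart from Lrp1b, Dcc and Mdga2 these shares rest on few regions.

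**Figure D3:**
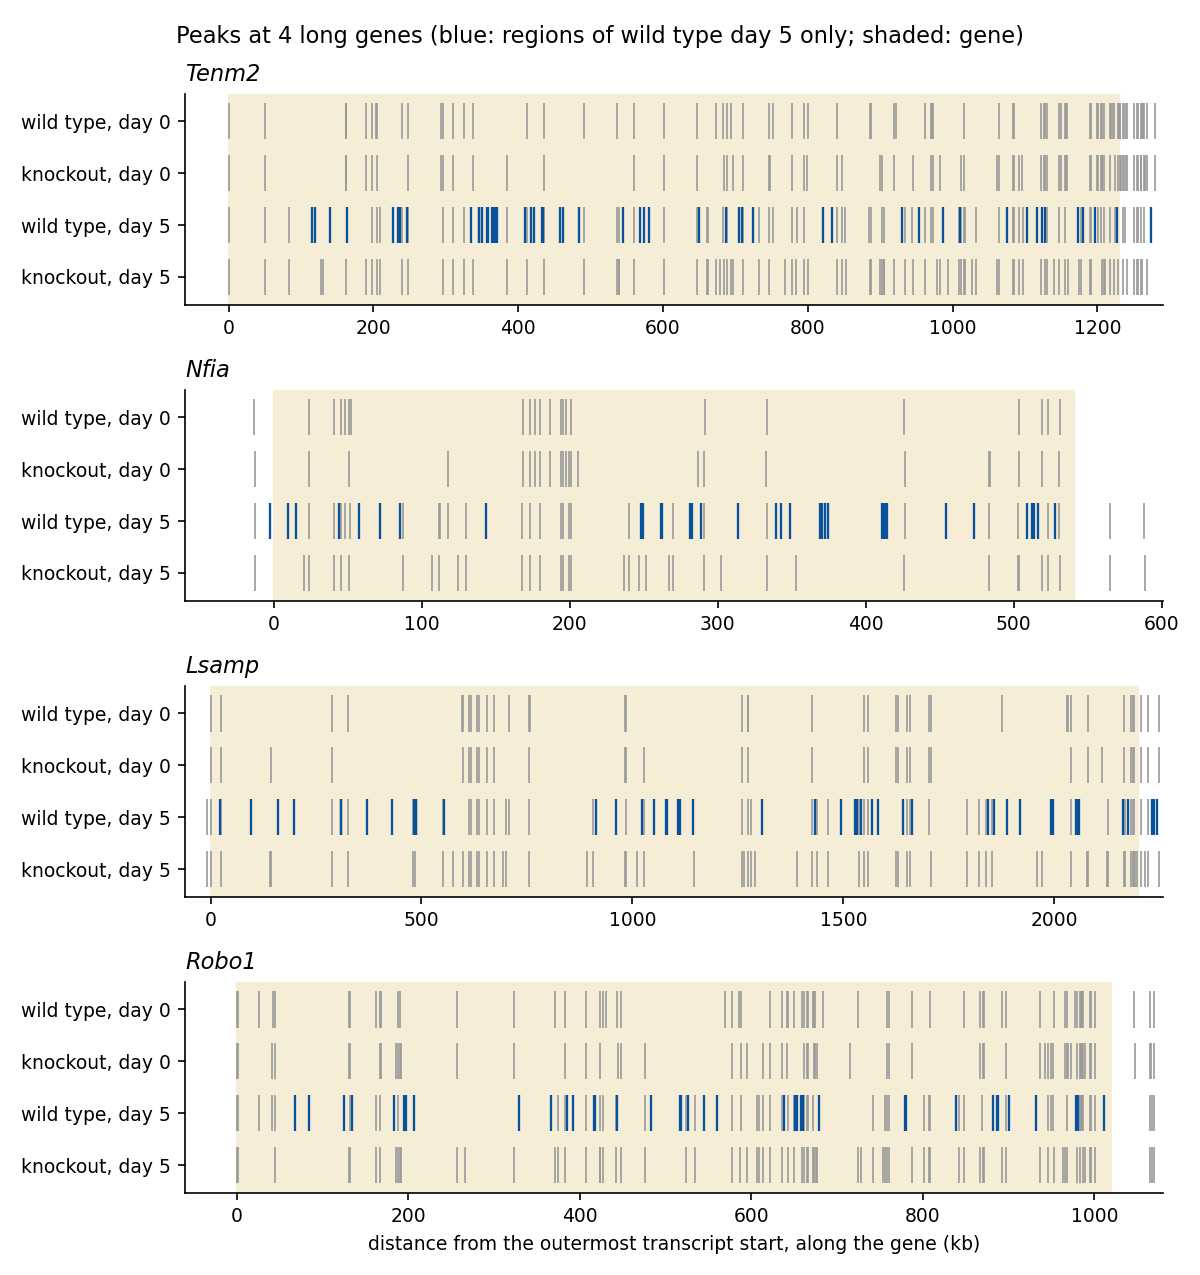
Peaks of the 4 libraries (rows) along Tenm2, Nfia, Lsamp and Robo1, placed by distance in kb from the outermost transcript start (x axis) with 50 kb shown beyond each end. Blue ticks are regions of wild type day 5 only, grey ticks are all other peaks and the shaded band is the gene, and the blue ticks gather in groups at Tenm2 and Nfia and spread along Lsamp and Robo1.

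Within the long genes the wild-type day 5 regions were spread along the whole length. Over 425 genes of at least 300 kb, 5 equal parts of the gene, counted from its start, held 18.9%, 19.4%, 20.9%, 21.4% and 19.3% of them. The other day 5 classes were spread along the genes too. The 5 parts held 18.4%, 18.8%, 21.3%, 22.2% and 19.4% of the regions shared by the 2 day 5 libraries alone. For knockout day 5 only they held 19.4%, 19.7%, 18.4%, 19.5% and 22.9%. The regions in all 4 libraries gathered at both ends, with 24.0% in the opening part, 16.8% in the next and 23.2% in the last.

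The regions also came in local groups. Of the 22923 windows of 100 kb with a wild-type day 5 peak, 674 held at least 5 private regions, 3786 in all, while the median window held 1. The densest window, chr11:36800001-36900000 inside Tenm2, held 14 private regions among 17, and the other libraries had 3 (wild type day 0), 3 (knockout day 0) and 4 (knockout day 5) regions there. The next, chr4:97900001-98000000 inside Nfia, which encodes a nuclear factor I protein of the switch to gliogenesis, held 11 of 12, against 1, 1 and 2. In the window chr11:37500001-37600000, in a gene desert 263 kb from Tenm2, all 10 regions were private and no other library had a region. The window chr2:137400001-137500000, 283 kb from Jag1, a Notch ligand, held 10 of 14, with 0, 4 and 4 regions in the other libraries. The last of the 5 densest, chr6:50900001-51000000, held 10 of 17, but knockout day 5 had 18 regions there, more than wild type day 5.

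Read in order along each chromosome, a wild-type day 5 region was followed by another one in 28.2% of cases, while 16.1% of all regions with a wild-type day 5 peak were private. Runs of at least 5 in a row numbered 280 and took in 1658 regions. The longest, 13 in a row, spanned chr16:64166745-64692981 around Csnka2ip, where wild type day 0, knockout day 0 and knockout day 5 had 3, 3 and 5 regions. Beside Tenm2, 2 runs of 12 followed each other at chr11:37504676-37672164 and chr11:37678329-38021135. The other libraries had no region within the first of these and 1 each within the second. A run of 11 lay in Nfia (chr4:97917120-97992355) and a run of 10 in Foxp2, a forkhead factor of neurons (chr6:15347375-15451055). Within the Nfia run the only region of another library was 1 private to knockout day 5.

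Gene lists by cell type were read as the share of regions with a wild-type day 5 peak, in the gene body with 50 kb on each side, that no other library had. Over all protein-coding genes it was 13.7% (13.5 to 13.8). For 20 genes of axon guidance and adhesion it was 38.0% (34.7 to 41.3), or 330 of 869 regions, and for 20 genes of neurons and synapses 32.7% (29.8 to 35.7), or 320 of 979. For 15 genes of radial glia and glia it was 22.3% (18.1 to 26.8), or 83 of 373. Most of these 83 lay at Nfia, with 34 of 62, and Egfr, with 16 of 40, so the share does not describe the list evenly. The private shares of knockout day 5 on these lists were 14.4%, 15.02% and 15.9%. These lists are rich in long genes. Among genes of 300 kb to 1 Mb, the axon guidance and neuron lists together had 35.5% (31.2 to 40.0) and other genes 25.1% (24.4 to 25.8). Over 1 Mb the shares were 40.9% (37.5 to 44.4) and 36.3% (34.4 to 38.2), with intervals that overlapped, and from 100 to 300 kb 30.1% (24.4 to 36.2) and 16.1% (15.7 to 16.6).

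**Figure D4:**
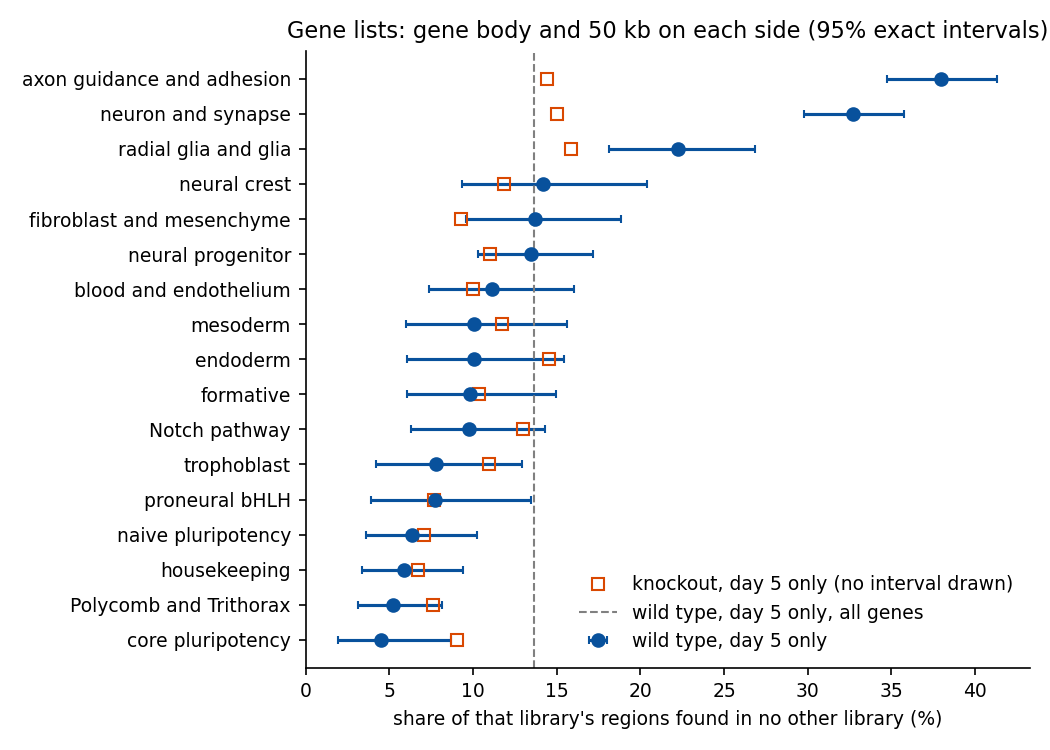
Share of regions found in a single library (x axis, percent) in the bodies of the listed genes with 50 kb on each side, for wild type day 5 (filled points, exact 95% intervals) and knockout day 5 (open squares). The dashed line is the wild-type day 5 share over all protein-coding genes, 13.7%, and the axon guidance, neuron and glia lists lie to its right.

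Near gene starts the axon guidance and neuron lists again lay above all genes, while the interval of the glia list took in the value of all genes. Within 50 kb of a start, 10.9% of wild-type day 5 regions were private over all genes, 35.2% (29.5 to 41.1) at the axon guidance list, 22.3% (17.5 to 27.8) at the neuron list and 15.05% (10.5 to 20.7) at the glia list. At least 1 such region lay within 50 kb of a start at 19 of 20 axon guidance genes, 17 of 20 neuron genes and 12 of 15 glia genes, against 56.7% of all genes. Relative to all genes, the axon guidance share was 3.23 times as high within 50 kb of a start, 1.77 times within 10 kb, and 7.63 times for regions with no other peak within 5 kb. The last value draws on the other libraries' peaks again, and no such value was made for knockout day 5. Among axon guidance genes, Cdh2, the neural cadherin, had 11 of 25 regions, Ntn1, the netrin ligand, 8 of 32, Dcc 7 of 12 and Epha7, an ephrin receptor, 7 of 13. Among neuron genes, Rbfox1, a splicing factor, had 8 of 24, Lsamp 6 of 12 and Cntnap2, a neurexin relative, 5 of 25. In the glia list Egfr, the EGF receptor, Nfia, Nfib and S100b had 4 each, of 16, 10, 28 and 14 regions. In the whole body with 50 kb on each side Nfia carried 34 of 62, while wild type day 0, knockout day 0 and knockout day 5 had 23, 24 and 37 regions. Its relatives Nfib and Nfix had 6 of 46 and 2 of 45. At Egfr, 16 of 40 regions were private and the other libraries had 18, 20 and 30.

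Progenitor genes did not stand out as a list. For 20 neural progenitor genes the share was 13.5% (10.3 to 17.2) in the body with 50 kb on each side. Some had several regions near the start: Meis1, a homeobox cofactor, had 7 of 21, Sox11 7 of 17, Pax6, a neural and eye master regulator, 6 of 21 and Meis2 3 of 12. At Sox11 neither knockout day 5 alone nor the 2 day 5 libraries alone had a region. The proneural bHLH list, whose factors start neurogenesis, had 7.75% (3.93 to 13.4), with Neurod1 at 3 of 12, Neurog1 at 2 of 18 and Atoh1 at 1 of 10. The Notch list had 9.79% (6.31 to 14.3), with 4 of 13 at the ligand Dll1, 4 of 14 at Notch2, 3 of 21 at Notch1 and 2 of 18 at Lfng, which tunes Notch receptors.

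Pluripotency genes lay at the other end. The core list had 4.49% (1.96 to 8.66), 8 of 178 regions, of which 2 were at Utf1 and none at Nanog or Sall4. The naive list had 6.33% (3.59 to 10.2), with 2 of 24 near the start of Esrrb and 2 of 11 at Klf4. For the formative list, which marks cells leaving naive pluripotency, it was 9.84% (6.03 to 14.9), with 4 of 32 at Pou3f1, 3 of 31 at Dnmt3a and 3 of 18 at Dnmt3b, both de novo DNA methyltransferases, and 2 of 4 at Sox3. Polycomb and Trithorax genes had 5.23% (3.13 to 8.14) and housekeeping genes 5.88% (3.40 to 9.38), where Ywhaz alone had 6 of 27. The private shares of knockout day 5 were 9.05% (core), 7.10% (naive), 10.3% (formative), 7.59% (Polycomb and Trithorax) and 6.69% (housekeeping). Its share over all genes was 13.6%, so low shares on these lists were common to both day 5 libraries. The start windows themselves did not separate the days: all 10 core pluripotency genes had a start peak in wild type day 0 and 9 in wild type day 5, and the neural progenitor list went from 19 to 20 of 20.

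Lists for other lineages had shares whose intervals took in that of all genes or lay below it. Neural crest had 14.2% (9.32 to 20.4), led by the ETS factor Ets1 with 10 of 26 near its start. Mesoderm had 10.1% (5.97 to 15.6), with 3 each at Eomes, Foxc2 and Mesp1, and endoderm 10.1% (6.07 to 15.4), with 4 of 15 at Foxa2. Blood and endothelium had 11.2% (7.35 to 16.0), with 5 of 31 at Fli1 and 3 of 10 at Kdr, and trophoblast 7.78% (4.21 to 12.9), with 2 of 20 at Cdx2. The fibroblast and mesenchyme list stands for feeder cells. It had 13.7% (9.59 to 18.8), with 4 of 15 at Col3a1, 3 of 21 at S100a4 and 3 of 12 at Twist2. Of its 16 genes, 13, 14, 16 and 15 had a start peak in wild type day 0, knockout day 0, wild type day 5 and knockout day 5, and Prrx1 had one in wild type day 5 alone. Lum had one at day 5 in both genotypes and at day 0 in neither, and Col3a1 lacked one in wild type day 0. The part of feeder cells in the results was not tested.

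Gene families named by symbol, put together after the values were known, are given beside the 13.7% of all genes, the length classes above and the knockout day 5 shares. In the body with 50 kb on each side, the private share was 39.8% (32.4 to 47.5) for the contactins, adhesion proteins of axons, 38.5% (29.6 to 47.9) for the type IIa receptor phosphatases and 35.2% (28.2 to 42.8) for the netrin receptors. The GABA-A receptor subunits had 34.5% (26.0 to 43.7), the Slit and Robo genes 33.1% (28.2 to 38.3), the neurexins 32.8% (26.3 to 39.9), the contactin-associated proteins 31.7% (25.4 to 38.6) and the teneurins 30.9% (26.1 to 36.1). The knockout day 5 shares of these 8 families were 9.09 to 21.4%. The teneurins and neurexins, with median lengths of 1065.8 and 1059.5 kb, lay below or near the 37.2% of all genes over 1 Mb. The length classes count regions that overlap the gene body alone, so the 2 measures differ. Both families also hold genes under 1 Mb, such as Tenm1 and Nrxn2. Metabotropic glutamate receptors had 28.1% (22.0 to 34.9), semaphorins 20.8% (17.4 to 24.6), Eph receptors 20.4% (16.3 to 25.02) and cadherins 20.4% (17.2 to 23.8). In the same order the knockout day 5 shares were 10.8%, 11.1%, 12.1% and 14.1%. Other neural families lay nearer to all genes, with 19.9% (16.4 to 23.7) for ionotropic glutamate receptors, 18.6% (10.3 to 29.7) for neuroligins, 17.6% for plexins, 17.6% for calcium channels and 15.3% (12.5 to 18.4) for potassium channels. Knockout day 5 had 16.3%, 11.5%, 12.1%, 16.5% and 12.7% in these families. For the Sox factors it was 18.0%, for Pax 13.6%, for Fox 12.9%, for Hox 6.84% (3.69 to 11.4) and for ribosomal proteins 6.35% (5.05 to 7.88). The matching knockout day 5 shares were 15.8%, 10.2%, 11.4%, 8.26% and 8.30%. The collagens had 15.2%, the olfactory receptors 14.3% and the keratins 10.4%, each with an interval that took in the 13.7% of all genes. The collagens thus lay level with the potassium channels. The knockout day 5 shares were 12.3% for the collagens, 19.8% for the olfactory receptors and 9.87% for the keratins. Genes of a family in 1 cluster share regions, so such counts are not independent.

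Members of a family differed widely. Among the type IIa phosphatases, Ptprd had 43 of 74 private regions, Ptprf 2 of 25 and Ptprs 0 of 18. Ptprf and Ptprs are much shorter genes, of 83.2 and 64.1 kb against 2270.5 kb. Nrxn3, a neurexin, had 34 of 86, but Nrxn2, of 114.5 kb, 3 of 35. Nlgn1, a neuroligin of 911.1 kb, had 13 of 35, while Nlgn2 and Nlgn3 had none of 20 and none of 15. Tenm1, an X-linked teneurin of 901.3 kb, had 3 of 18 and Tenm2, of 1230.4 kb, 51 of 121. Cdh12, at 1149.5 kb, had 19 of 37 and Cdh2, at 220.4 kb, 19 of 43, whereas Cdh4, at 457.0 kb, had 11 of 56. Cdh12 had no region and Cdh2 had 1 that was private to knockout day 5. Foxp2 had 19 of 34 and its relative Foxp1, a longer gene, 15 of 69.

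A wild-type day 5 region overlapped the start window of 535 protein-coding genes (2.44%). Where no transcript start was listed, both outer gene ends were counted, so some of these windows lie at 3′ ends. The start window of 158 genes (0.722%) held wild-type day 5 peaks and no other library's. Such a peak need not be a wild-type day 5 region, since another library's peak may overlap it beyond the window. Of the listed genes outside Y, S100b, a calcium-binding protein of astrocytes, and Prrx1 were among the 158. At Prrx1 no wild-type day 5 region overlapped the start window. At S100b the region chr10:76253343-76254243 covered the start shown above. The region at Nhlh1, a bHLH factor of new neurons, chr1:172057232-172058142, also covered its start, though knockout day 0 had a peak within the same window. At Rbfox1 the region chr16:7069149-7070024 lay at an internal start, 4.47 kb from another library's peak. Dll1 had 2 regions at its start, chr17:15376734-15377212 and chr17:15377830-15378466, but all 4 libraries had a peak in that window. The same held at the listed starts of Fabp7, Gsc, Ring1, Epha7 and Gapdh, where the nearest peak of another library lay 0.112 to 0.67 kb from the wild-type day 5 region. At Hand1, Sox10, Wnt8a, Tfap2c, Pou3f1, Cdh5 and Fli1 no start was listed and the region lay at an outer gene end, which may be the 3′ end. Gabrb2 had a region, chr11:42419708-42420601, over the promoter shown above, and 3 of its listed promoter windows overlapped wild-type day 5 regions. It was not among the 158 genes, so another library had a peak within 1 kb of one of its starts.

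Skeletal muscle and myeloid genes also appeared among the 158, and lists for both were made after that was seen, so their counts only describe. The 158 were a mixed set and also held olfactory receptor genes, among them Olfr145, Olfr768 and Olfr1009. Of 24 muscle genes, 8 had start peaks in wild type day 5 alone: Ckm, Tnni1, Tnnc1, Myh2, Mybph, Myoz2, Smyd1 and Mstn. Start peaks were present at 13, 12, 20 and 14 of the 24 in the same order of libraries. Of 16 myeloid genes, 5 had start peaks in wild type day 5 alone (P2ry12, Adgre1, Trem3, Lyz1 and Gpr183), and 6, 7, 10 and 5 had one in the 4 libraries. No count of nuclei of these types was used, and their part in the result was not tested.

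Promoters under wild-type day 5 regions differed in base composition from those open in every library. The RefSeq windows of 300 bases (250 before and 50 after the start) overlapped wild-type day 5 regions in 443 cases, at 403 genes, and 441 of the 443 had no other library's peak. Long non-coding RNAs made up 58.9% of them, against 20.1% of the windows open in all 4 libraries and 35.3% of all 32851 windows. Other private classes were alike in this, with 61.9% for knockout day 0 only, 55.5% for knockout day 5 only and 51.8% for wild type day 0 only, and windows with no peak had 50.7%. Their median GC content was 48.3%, against 60.3% in all 4 libraries. The ratio of observed to expected CpG had a median of 0.19, against 0.72 in all 4 libraries, 0.23 for knockout day 5 only and 0.17 for windows with no peak. The medians for wild type day 0 only and knockout day 0 only were 0.20 and 0.24, so the promoters under private peaks of every library were CpG-poor. Of the 6 printed, S100b had a CpG ratio of 0.14 and Nhlh1 0.084, while Dll1 had 0.64 and Uty 0.79.

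Among 16 motifs searched in these windows on both strands, the E-box CAGCTG was present in 27.1% (23.0 to 31.5) of the 443, against 15.9% of windows in all 4 libraries, 17.1% of those of knockout day 5 only and 16.3% of all. Windows of the 2 day 5 libraries alone had it in 25.6%, and windows with no peak in 15.6%. The SOX core ACAAAG was present in 29.1% (24.9 to 33.6), against 18.7% of all windows, 26.8% for knockout day 5 only and 23.8% with no peak. For the nuclear factor I core TTGGCA the shares were 21.0% (17.3 to 25.1), 14.1%, 16.2% and 17.6%, and for the E-box CAGATG 24.6%, 17.2%, 27.6% and 23.0%. In windows of the 2 day 5 libraries alone ACAAAG was in 20.2%, TTGGCA in 14.2% and CAGATG in 17.2%, near the shares of all windows. The GC box GGGCGG was present in 11.1% (8.30 to 14.4), against 60.2% in all 4 libraries and 35.7% of all windows, and the ETS motif CCGGAAG in 1.13% against 15.3% and 8.86%. Both were scarce in the other private classes too: the GC box was in 13.6% for knockout day 5 only, 13.6% for knockout day 0 only and 6.42% with no peak, and the ETS motif in 3.51%, 2.95% and 1.59%. For CAGCTG the interval lay above those of windows with no peak (14.9 to 16.2) and of knockout day 5 only (13.8 to 20.9), and overlapped that of the 2 day 5 libraries alone (21.0 to 30.7). In the central 150 bp the intervals of wild type day 5 only (10.3 to 16.8) and knockout day 5 only (6.34 to 11.8) overlapped, and for the 118 windows under regions with no other peak within 5 kb the interval was 17.9 to 34.3. With 1 window kept per gene, it was in 28.3% of 403 genes. CAGCTG reads the same on both strands, and none of the 16 strings contains another. A match is a string of letters and not a bound site. The CCAAT box (CCAAT) was in 31.8% of the 443 windows and 37.4% of all, and the TATA box (TATAAA) in 17.2% and 13.6%. A TEAD site (GGAATG) was in 20.5% and 14.7%, an AP-1 site (TGANTCA) in 10.2% and 7.81%, and an OTX site (TAATCC) in 9.48% and 7.06%. A homeobox core (TAATTA) was in 6.55% and 5.29%, the POU octamer (ATGCAAAT) in 2.48% and 1.74%, and the cyclic AMP element (TGACGTCA) in 1.81% and 1.79%. The last 2, an NRF1 site and a YY1 site (AANATGGCG), were each in 0.226% of the 443 windows, against 4.60% and 2.38% of all.

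**Figure D5:**
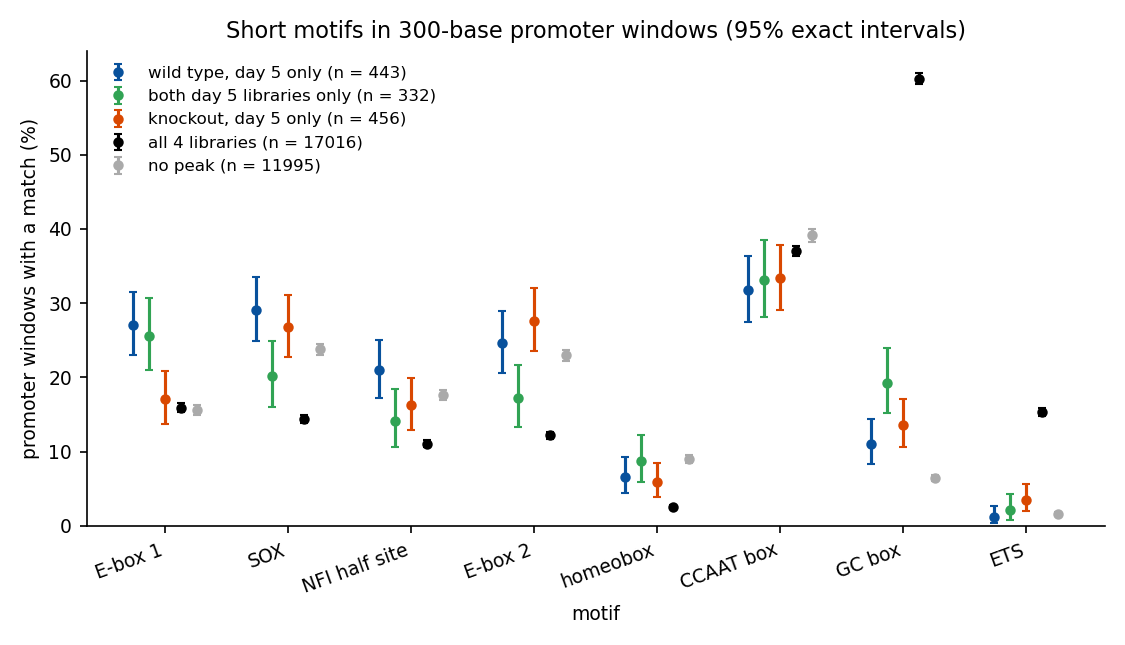
Percent of 300-base promoter windows with a match (y axis) for 8 motifs (x axis; E-box 1 is CAGCTG, E-box 2 is CAGATG), by which libraries had a peak there, with exact 95% intervals. At E-box 1 the windows of wild type day 5 only, at 27.1%, and of both day 5 libraries lie above the other classes, and at the GC box the windows open in all 4 libraries lie far above the rest.

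Across the autosomes the private share of regions with a wild-type day 5 peak ran from 13.1% on chromosome 7 to 19.5% on chromosome 12. X lay lower, with 11.8% (10.8 to 12.9), 481 of 4067. The X held 4273 peaks in wild type day 0, 5565 in knockout day 0, 4112 in wild type day 5 and 6659 in knockout day 5. Both knockout lists thus had more X peaks than either wild-type list, and the part of this in the X share was not tested. On Y, 5 of 20 were private: chrY:1009988-1010902 at the start of Eif2s3y, chrY:1245268-1246155 at Uty, chrY:1286167-1286958 at Ddx3y, chrY:808827-809693 near Uba1y and chrY:90828392-90829303. Eif2s3y encodes a translation initiation factor subunit, Uty a histone demethylase relative and Ddx3y an RNA helicase. The nearest peaks of any other library to the 3 starts were at least 2870 kb away. At miRNA genes, 38 of 1005 hairpins (3.78%) had a wild-type day 5 region within 1 kb, which was 9.05% of the 420 with any wild-type day 5 peak there.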

How the data were processed

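Single-nucleus ATAC-seq was run on 4 libraries, 1 for each of wild type and knockout at day 0 and day 5. The files deposited by the authors are 4 peak lists that give positions alone (chromosome, start, end), without score or count. The caller was cellranger-arc 2.0.0, run on each library by itself against mm10, per the file headers. Scanpy 1.7.2 is also named, per the submitters' processing notes. RNA and cell-level data were not used here. Depth is unknown.

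The lists were pooled and peaks sharing at least 1 bp merged (Python 3.11.15, numpy 2.4.6, pandas 2.3.3, scipy 1.17.1), with the merging and counting tested on simulated peaks. Gene bodies of 21883 protein-coding genes came from a RefSeq table of GRCm38.p6. Transcript starts came from its promoter windows for 17491 genes, and both outer ends were used for the other 4392. A region is at a start within 1 kb of one. Gene lists were read within 50 kb of a start and in the body with 50 kb on each side, and intervals are exact Clopper-Pearson at 95%. With 1 library per group no test, correction or replicate error exists, and regions are not replicates.

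Named were the 5 widest regions, the 5 widest with no other peak within 5 kb, those on Y and at starts of listed genes, the 5 densest windows, up to 4 genes per list and the top 10 genes by number and by share (at least 10 regions). The regions and lists were chosen with earlier results of these data known. Length classes, families, runs, muscle and myeloid lists and the other genes and families named were added after values were seen. Repeated gene families such as olfactory receptors are uncertain, and overlapping genes share regions. Alternatives were other overlaps, widths, windows and equal list lengths. Some regions and genes that this rule names are not reported here.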

Additional observations from a re-analysis of the deposited data

How the results depend on the processing

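Of the values recomputed under an alternative, 125 stayed within their counting interval or, for counts, within 1.5 times, and 79 moved. The demand that no other library have a peak within 5 kb left 10501 regions. It took the share at gene starts to 0.943%, the share in gene bodies to 40.5%, the median width to 884 bp, the share in genes over 1 Mb relative to all regions from 2.32 to 4.03 times and the GC box to 6.78% of promoters. Joining peaks across 500 bp gave 1.38% at starts, 46.6% in bodies, 882 bp and 2.46 times. Equal numbers of widest peaks gave 3.08% at starts, 858 bp, 2.04 times in genes over 1 Mb and 2.67 for the axon guidance list against all gene starts. Reciprocal overlap of 50% gave 1.97% and 865 bp. Windows of 500 bp and 2 kb around starts gave 1.20% and 3.29%. The knockout day 5 share in genes over 1 Mb was 1.34 times that of all its regions. It was 1.40 with gaps of 500 bp joined and 1.34 both with equal numbers and on autosomes, the 3 alternatives run for it.

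Within 10 kb of gene starts, the numbers of listed genes with a region were core pluripotency 2, naive pluripotency 1, formative 4, neural progenitor 8, radial glia and glia 5, neuron and synapse 9, axon guidance and adhesion 10, proneural bHLH 3, Notch pathway 3, mesoderm 4, endoderm 2, neural crest 3, fibroblast and mesenchyme 4, trophoblast 3, Polycomb and Trithorax 4, housekeeping 4. With no other peak within 5 kb they were core pluripotency 0, naive pluripotency 1, formative 1, neural progenitor 5, radial glia and glia 5, neuron and synapse 9, proneural bHLH 3, Notch pathway 1, mesoderm 3, endoderm 4, neural crest 3, blood and endothelium 1, fibroblast and mesenchyme 5, trophoblast 0, Polycomb and Trithorax 0, housekeeping 0. The share of private regions relative to that at all gene starts, within 10 kb, was formative 1.51, neuron and synapse 1.58, axon guidance and adhesion 1.77, Notch pathway 1.51, blood and endothelium 1.92, fibroblast and mesenchyme 0.745, Y-linked single-copy 13, housekeeping 0.988. With no other peak within 5 kb it was core pluripotency 0, neuron and synapse 4.75, axon guidance and adhesion 7.63, proneural bHLH 1.33, Notch pathway 0.263, mesoderm 0.565, neural crest 2.45, blood and endothelium 0.232, trophoblast 0, Y-linked single-copy 46.3, Polycomb and Trithorax 0, housekeeping 0. The neuron and axon guidance lists lay above 1 under all 4 alternatives and the core and naive pluripotency lists below 1. The Notch list changed sides under 2 of 4 alternatives, and the formative, neural progenitor, proneural bHLH, mesoderm, endoderm, blood and fibroblast lists under 1. The central 150 bp of promoter windows had CAGCTG in 13.3%, CAGATG in 12.6%, ACAAAG in 16.5%, TTGGCA in 10.6% and the GC box in 7.22%.

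No paired analysis was possible because each group has 1 library and no result comes from a test. With 1 library per group no replicate was left out. The lists hold no counts or scores, so the depth behind a peak is unknown and a missing peak is not closed chromatin. Motifs were read only at promoters, since no genome was used.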
